A study of Rattus norvegicus with 24 samples.

Results

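The insulin-like growth factor axis and the non-coding RNA H19 were followed in rat heart ventricles during streptozotocin diabetes. The members were the ligands Igf1 and Igf2, the receptors Igf1r and Igf2r, the binding proteins Igfbp3 and Igfbp5, and H19. They were taken as every probe set of the Affymetrix RG-U34A array whose platform annotation gives one of these 7 gene symbols. This gave 21 of the 8740 probe sets that are not controls, and 15 of the 21 were among the 5244 bright enough to be tested. The filter left out 2 Igf1, 3 Igf2 and 1 Igfbp5 probe sets, whose signals are described below.

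Male Wistar rats of 150 g received either 65 mg/kg streptozotocin, which kills pancreatic beta cells and so removes the source of insulin, or citrate buffer. They were caged singly with free access to feed. Ventricles were collected 3, 28 or 42 days later, at stages that the submitters describe as free of symptoms, as diastolic dysfunction, and as diastolic with systolic dysfunction. There were 6 groups of 4 animals, with total RNA of each animal on an array of its own. All groups share the strain, sex and housing, and the controls aged alongside the diabetic rats, so the control groups also record normal growth after injection.

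IGF-I and IGF-II are small secreted proteins related to insulin that promote growth and survival through the IGF-1 receptor, a tyrosine kinase. The IGF-2 receptor, which also carries mannose 6-phosphate-tagged enzymes, takes up IGF-II for breakdown, and the IGF-binding proteins carry the ligands in blood and tissue and set how much reaches the receptors. H19 and Igf2 are imprinted neighbours, expressed from opposite parental chromosomes in the fetus under a shared control region; in rodents both are abundant before birth and are largely shut down in most tissues afterwards, and the heart is a tissue in which re-expression of fetal genes is a known feature of stress.

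In the RefSeq annotation of the rat assembly GRCr8, 4 of the 7 genes lie on chromosome 1 (H19, Igf2, Igf1r and Igf2r), Igf1 on chromosome 7, Igfbp5 on chromosome 9 and Igfbp3 on chromosome 14, and no other gene lies wholly between H19 and Igf2. Both members of this imprinted pair carry a microRNA within the host gene. The mature sequences from RefSeq (GRCr8) are shown 5′ to 3′ with the seed, bases 2 to 8, in capitals, because they are the small RNAs encoded inside the transcripts whose signals are reported here. The array did not measure the mature microRNAs themselves. The first pair lies inside H19, at chr1:207161766-207161786 and chr1:207161800-207161821 on the minus strand, and the second inside Igf2, at chr1:207247865-207247886 and chr1:207247903-207247924 on the minus strand.
rno-miR-675-3p: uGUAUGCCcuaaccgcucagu
rno-miR-675-5p: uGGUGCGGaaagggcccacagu
rno-miR-483-3p: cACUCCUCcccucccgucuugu
rno-miR-483-5p: aAGACGGGagaagagaagggag

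The protein-coding members that passed the test for higher signal at day 42 were Igfbp3 and Igf2r, and the 250 bases before their annotated starts (RefSeq, GRCr8) are shown for that reason. Igfbp3 is at chr14:86277945-86278194 on the minus strand and Igf2r at chr1:50526628-50526877 on the plus strand. Capitals mark TATATA in Igfbp3 and GGGCGG in Igf2r. The window searched was the 250 bases before each start. TATATA, which reads the same on both strands, occurs in 5.45% of 33469 rat promoter windows and GGGCGG, on either strand, in 30.5%. Among the windows of the 6 members in the table, TATATA was found in Igfbp3 alone and GGGCGG in Igf2r, in Igf1r and in 1 of the 2 Igf2 windows. These are matches of letters and not measured binding sites.
Igfbp3 promoter: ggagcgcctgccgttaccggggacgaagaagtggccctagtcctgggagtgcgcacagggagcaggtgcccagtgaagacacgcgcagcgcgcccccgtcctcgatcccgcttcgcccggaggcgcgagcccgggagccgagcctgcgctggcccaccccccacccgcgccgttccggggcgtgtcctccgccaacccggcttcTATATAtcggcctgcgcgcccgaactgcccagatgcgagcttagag
Igf2r promoter: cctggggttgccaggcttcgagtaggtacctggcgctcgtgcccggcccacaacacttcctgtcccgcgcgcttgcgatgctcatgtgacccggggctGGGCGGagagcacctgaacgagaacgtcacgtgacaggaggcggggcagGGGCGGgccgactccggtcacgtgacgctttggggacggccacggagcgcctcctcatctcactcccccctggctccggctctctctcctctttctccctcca

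Values are MAS5 signals, array intensities that the submitters' software scaled to a common trimmed mean. Probe sets of a gene are numbered by mean signal, brightest first. H19 probe sets 1 and 2 share 1 reference sequence, as do Igf1 probe sets 1 and 3 and Igf2 probe sets 2 and 3, so these are not independent measurements of the gene. Levels of different probe sets cannot be set against each other. Fold changes are log2 differences of group means ± SE fitted with limma over all 24 arrays, with p-values adjusted over the 5244 probe sets of each comparison and a threshold of 0.05. These p-values measure the spread between animals. In RNA from whole ventricles, fewer cells of a type and less RNA per cell cannot be told apart.

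The 9 of 10 cardiomyocyte markers present on the array were expressed in every group, and their summed signal overlapped between diabetic and control ventricles at day 42. Array medians were 322.7 to 444.7 and arrays of a group correlated at 0.938 to 0.975. Scan periods followed the day of collection: all day 42 arrays were scanned on 1 day, and the arrays of days 28 and 3 on other days. The 3′ to 5′ signal ratio of hexokinase, a measure of RNA integrity and labelling, was 2.6 to 5.07 at day 42 in both treatment groups together, above most arrays of day 3 (1.61 to 2.77) and day 28 (1.43 to 2.58). For comparisons between days, day and scan period therefore cannot be told apart, and this holds for every such comparison below. Within a day the scan days overlapped between the treatment groups, apart from 1 diabetic array at day 3 and 1 at day 28 that were scanned on a day with no control. Fluidics station 2 held 4 diabetic and 1 control arrays at day 3, and 1 diabetic and 4 control arrays at day 28. At day 3, chip lot 4 held 1 diabetic and 3 control arrays and chip lot 5 held 3 and 1. Treatment and fluidics station can therefore be told apart only in part at days 3 and 28. The same holds for day and station where day 3 is compared with day 28.

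Diabetic rats weighed 117.5 ± 6.19 g at day 42 against 432.2 ± 26.8 g for controls (SD, n = 4 each), and their ventricles 0.3675 ± 0.0222 g against 0.9975 ± 0.118 g. No animal overlapped between the groups in either measure, and the exact two-sided permutation test gave p = 0.02857, the smallest that 4 against 4 animals allow (adjusted p = 0.06667). Control ventricles weighed 0.5075 ± 0.015 g at day 3, so the control hearts were still growing over the weeks compared here. Diabetic rats weighed 151 ± 6.98 g at day 3 and 230 ± 28.0 g at day 28. Their ventricles weighed 0.405 g and 0.5675 g. Every day 42 diabetic rat (112 to 126 g) was lighter than every earlier diabetic rat and than the starting weight given above. Mean blood glucose at days 3, 28 and 42 was 540, 632.8 and 654 mg/dl in diabetic rats. In controls it was 126.8, 113 and 131.8 mg/dl.

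Across the axis, H19 and Igfbp3 showed the same outline. Both were high in control ventricles at day 3, lower in controls at day 28 and day 42, and at day 42 high in diabetic ventricles. Of the 15 probe sets tested, 5 were higher in diabetic than control ventricles at day 42 and none was lower; these were both H19 probe sets, both Igfbp3 probe sets and the single Igf2r probe set, that is 3 genes. Over all probe sets tested, 11.4% passed at day 42, 5.8% in the higher and 5.63% in the lower direction. The median diabetic change of the 15 was 0.51 on the log2 scale, against -0.03 for all probe sets. Diabetic and control values did not overlap for 9 of the 15 at day 42, and for 19.8% of all probe sets. At day 3 none of the 15 passed by limma (0.934% of all did), with 2 at an unadjusted p under 0.05, and at day 28 none passed (2.1% of all did), with 4 at an unadjusted p under 0.05.

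**Figure D1:**
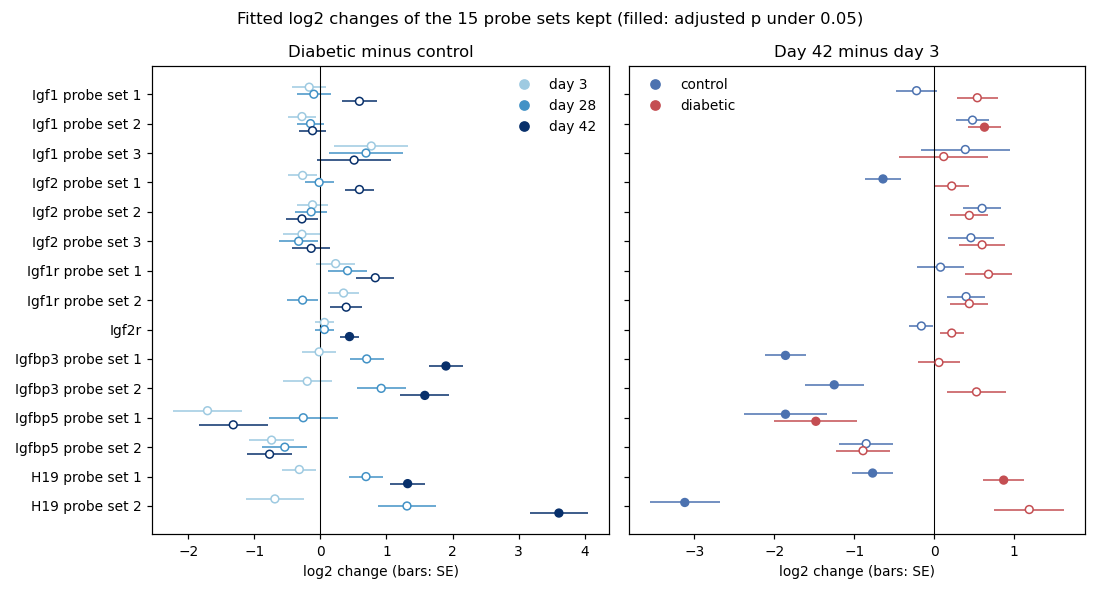
Fitted log2 changes with SE bars for the 15 probe sets tested, diabetic minus control at days 3, 28 and 42 (left) and day 42 minus day 3 within controls and within diabetic rats (right). Filled points have an adjusted p under 0.05. At left the filled points are the day 42 values of Igf2r, Igfbp3 and H19, between 0.44 and 3.61; at right, controls lie at -0.77 and -3.12 for H19 and diabetic rats at 0.87 and 1.19.

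Igf1, the ligand that mediates much of the growth-promoting action of growth hormone, did not pass in diabetic against control ventricles on any of its 3 tested probe sets. At day 42, Igf1 probe set 1 read 1816.0, 1449.2, 1966.4 and 1561.8 in controls and 1940.5, 2563.0, 4342.3 and 1920.2 in diabetic ventricles. The highest control lay above the lowest pair of diabetic values, and 1 diabetic animal stood well above the other three. The difference was 0.59 ± 0.26 on the log2 scale (1.51-fold, adjusted p = 0.16). Igf1 probe set 2 differed by -0.12 ± 0.21 (adjusted p = 0.82) and probe set 3 by 0.51 ± 0.56 (adjusted p = 0.68), so the probe sets did not share a direction. At day 3 the 3 differences were -0.17, -0.28 and 0.77, and at day 28 they were -0.10, -0.15 and 0.69, all with adjusted p of 0.68 or more.

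The remaining Igf1 probe sets were too dim for the filter. Igf1 probe set 5 read 33.8, 20.7, 75.7 and 95.5 in day 42 controls and 207.5, 149.2, 342.6 and 115.8 in day 42 diabetic ventricles, with no overlap. In a fit without the filter, over 8740 probe sets, this was a difference of 1.84 ± 0.38 (adjusted p = 0.0025). Control levels of the same probe set were 222.9, 207.5, 255.6 and 186.5 at day 3 and 151.9, 90.6, 136.9 and 133.9 at day 28. All day 3 controls lay above all day 28 controls, the day 28 and day 42 controls met at their edges, and the day 42 minus day 3 difference in controls was -2.05 ± 0.38 (adjusted p = 0.001, fit without the filter). One day 42 control array lay below the floor of 30.5 at which signals were set before the logarithm. Igf1 probe set 4 read 59.8 to 238.0 in day 42 controls and 151.9 to 487.3 in diabetic ventricles and differed by 0.60 ± 0.63 at day 42 (adjusted p = 0.78, fit without the filter).

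Igf2, the ligand best known as a fetal growth factor, gave opposite signs on its probe sets. Igf2 probe set 1 read 1950.8, 1623.7, 1322.5 and 1632.5 in day 42 controls and 2227.3, 2530.3, 2891.2 and 2126.7 in day 42 diabetic ventricles. Every diabetic value lay above every control value, yet the difference of 0.59 ± 0.22 did not pass (1.5-fold, adjusted p = 0.098). Igf2 probe set 2 read 1718.4, 1627.0, 1984.2 and 1671.7 in day 42 controls and 1275.2, 1453.6, 1509.1 and 1545.3 in diabetic ventricles, where every diabetic value lay below. That difference was -0.28 ± 0.24 (adjusted p = 0.59), and probe set 3 on the same reference sequence differed by -0.14 ± 0.29 (adjusted p = 0.86). At day 3 the 3 differences were -0.27, -0.12 and -0.28, and at day 28 they were -0.02, -0.14 and -0.33, with adjusted p of 0.71 or more. The sign of an Igf2 change at day 42 therefore rested on the choice of probe set.

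The other 3 Igf2 probe sets were at the dim end of the array. Igf2 probe set 4 read 78.4, 112.4, 70.5 and 88.5 in day 42 controls and 106.8, 180.1, 159.1 and 116.2 in diabetic ventricles, a difference of 0.67 ± 0.32 without the filter (adjusted p = 0.29). Igf2 probe set 5 lay at the floor on 5 of 24 arrays and probe set 6 on 8 of 24. Their day 42 differences were -0.31 ± 0.55 and 0.17 ± 0.52 (adjusted p = 0.90 and 0.96, fit without the filter).

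**Figure D2:**
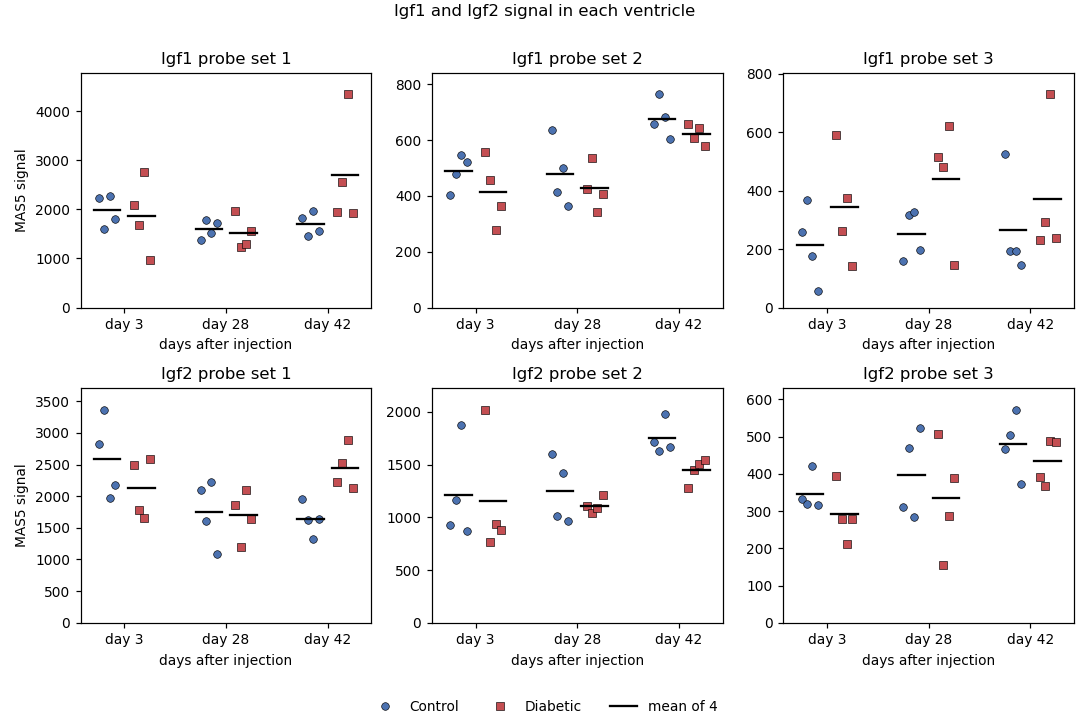
MAS5 signal of each ventricle for the 3 tested probe sets of Igf1 and of Igf2, by day, with controls as circles, diabetic animals as squares and lines at the mean of 4. At day 42 the diabetic points of Igf2 probe set 1 (2126.7 to 2891.2) lie above the controls (1322.5 to 1950.8), whereas those of Igf2 probe set 2 (1275.2 to 1545.3) lie below (1627.0 to 1984.2).

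Igf1r, the signalling receptor of both ligands, was higher in every diabetic than in every control ventricle at day 42 on both probe sets, without passing the test. Igf1r probe set 1 read 540.2, 351.3, 663.9 and 696.4 in controls and 784.8, 1193.7, 972.0 and 962.1 in diabetic ventricles, a difference of 0.83 ± 0.29 (1.78-fold, adjusted p = 0.068). This adjusted p was 0.011 to 0.1 over the other ways of processing the arrays and lay under 0.05 in 5 of 14 of them. Igf1r probe set 2 read 501.0, 475.0, 570.1 and 518.8 in controls and 615.8, 689.1, 736.0 and 672.7 in diabetic ventricles, a difference of 0.39 ± 0.24 (1.31-fold, adjusted p = 0.35). At day 28 probe set 1 differed by 0.41 and probe set 2 by -0.27, and at day 3 by 0.23 and 0.35, each with overlapping groups.

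Igf2r, the receptor that removes IGF-II, passed at day 42 by a narrow margin. It read 2424.8, 2307.2, 3468.7 and 2522.3 in controls and 3081.8, 3736.6, 4165.3 and 3499.5 in diabetic ventricles. The groups overlapped, because control replicate 3 exceeded diabetic replicate 1. The difference was 0.44 ± 0.15 (1.36-fold, adjusted p = 0.0495). Leaving out 1 animal at a time gave 0.37 to 0.57 and the call survived the removal of control replicate 3 or of diabetic replicate 1 but of no other animal, and 7 of 14 other ways of processing lost it too (adjusted p = 0.026 to 0.075). At days 3 and 28 the difference was 0.06 each time (adjusted p = 0.96 and 0.91).

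**Figure D3:**
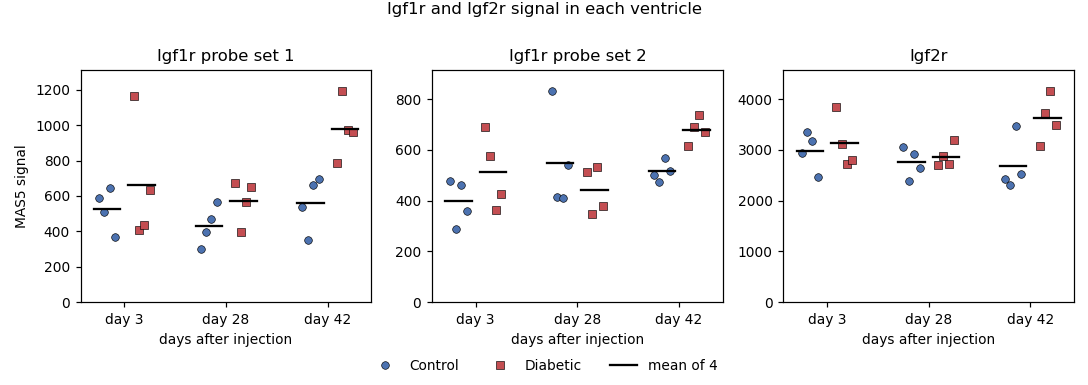
MAS5 signal of each ventricle for both Igf1r probe sets and for Igf2r, by day, with controls as circles, diabetic animals as squares and lines at the mean of 4. At day 42 the diabetic points lie above the controls on both Igf1r probe sets, and for Igf2r a control at 3468.7 lies above the lowest diabetic value of 3081.8.

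Igfbp3, the main IGF carrier in the circulation, was higher in diabetic than in control ventricles at day 42 on both probe sets. Igfbp3 probe set 1 read 1197.3, 1207.0, 1161.9 and 959.5 in controls (1131 ± 116, SD, n = 4) and 4966.7, 5646.9, 2621.9 and 4260.8 in diabetic ventricles (4374 ± 1298). The lowest diabetic ventricle was more than double the highest control. The difference was 1.90 ± 0.26 (3.73-fold, adjusted p = 1.1e-05). Igfbp3 probe set 2 read 637.8, 649.2, 469.2 and 488.2 in controls and 2068.2, 1996.7, 966.9 and 1892.2 in diabetic ventricles, a difference of 1.58 ± 0.37 (2.99-fold, adjusted p = 0.0047). Diabetic replicate 3 was the lowest of its group on both probe sets and still lay above all controls.

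At day 28, Igfbp3 probe set 1 read 1154.9, 1558.2, 1410.2 and 1504.1 in controls and 2802.4, 1675.8, 3475.8 and 1617.8 in diabetic ventricles. The groups did not overlap, as for 6.52% of all probe sets at that day, and the difference of 0.70 ± 0.26 did not pass (adjusted p = 0.21). Probe set 2 differed by 0.92 ± 0.37 with overlap (adjusted p = 0.27). At day 3 the diabetic and control means were 4271 and 4111 on probe set 1 and 1301 and 1392 on probe set 2, with overlapping groups and adjusted p of 0.95 or more.

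For Igfbp3 probe set 1 the diabetic effect at day 42 exceeded the day 3 effect by 1.92 ± 0.37 (adjusted p = 0.0042). Probe set 2 gave 1.78 ± 0.52 for the same difference of effects and did not pass (adjusted p = 0.09). The day 42 and day 28 effects differed by 1.20 ± 0.37 and 0.65 ± 0.52 (adjusted p = 0.17 and 0.85); without diabetic replicate 3 at day 42 the first was 1.43 and passed. In this test of a changing effect, 3 of the 15 probe sets passed for day 42 against day 3, where 1.87% of all passed, 0.572% with a larger effect at day 42; Igfbp3 probe set 1 and both H19 probe sets made up the 3. None of the 15 passed for day 28 against day 3 (0% of all, 3 of the 15 at an unadjusted p under 0.05) or for day 42 against day 28 (0.973% of all, 2 of the 15 at an unadjusted p under 0.05).

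Igfbp5, a binding protein that also binds extracellular matrix, went the other way without passing the test at any day. Igfbp5 probe set 1 read 792.7, 873.5, 802.7 and 1085.6 in day 3 controls and 173.2, 288.9, 209.8 and 505.7 in day 3 diabetic ventricles. All diabetic values lay below all controls, and the difference was -1.71 ± 0.52 (3.27-fold lower, adjusted p = 0.15). Igfbp5 probe set 2 read 257.4, 495.5, 331.0 and 381.2 in day 3 controls and 208.7, 232.0, 240.3 and 180.1 in diabetic ventricles, also without overlap, at -0.74 ± 0.34 (adjusted p = 0.48). Together with H19 probe set 2, these were the 3 of 15 probe sets whose groups did not overlap at day 3, where 7.19% of all did not. Both Igfbp5 probe sets lay near the filter cut (mean log2 of 7.94 and 7.78 against 7.7). Their bright day 3 controls helped them to be tested, so this count was partly selected for. Under 2 of 13 other ways of processing, the day 3 difference of probe set 1 passed, with adjusted p of 0.036 at the lowest and 0.4 at the highest.

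At day 42, Igfbp5 probe set 1 read 396.6, 123.4, 284.7 and 248.8 in controls and 97.9, 118.3, 84.9 and 90.1 in diabetic ventricles. The groups again did not overlap, at -1.32 ± 0.52 (adjusted p = 0.11). Probe set 2 differed by -0.77 ± 0.34 with overlap (adjusted p = 0.17). At day 28 the differences were -0.26 and -0.54 with overlap. Igfbp5 probe set 3 lay at the floor on 19 of 24 arrays and gives no usable level.

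**Figure D4:**
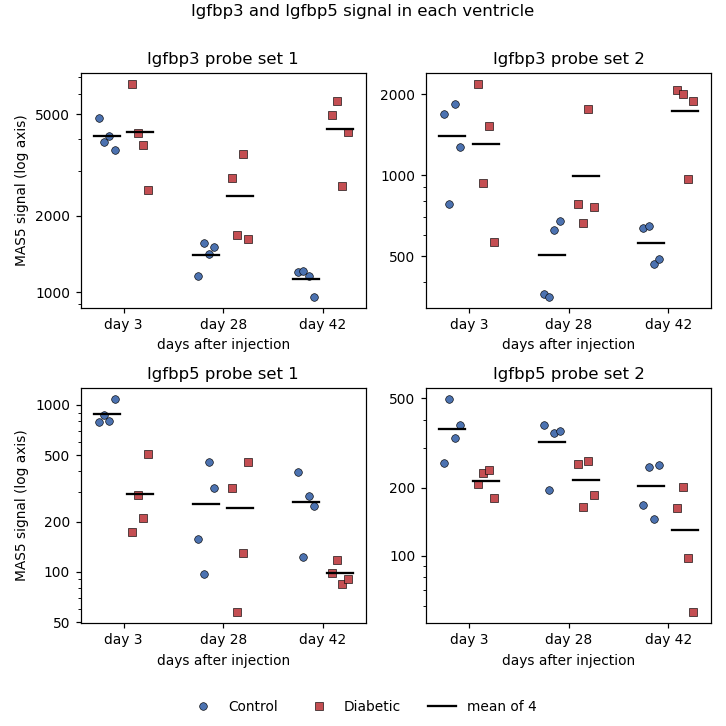
MAS5 signal on log axes of each ventricle for both Igfbp3 probe sets and the 2 tested Igfbp5 probe sets, by day, with controls as circles, diabetic animals as squares and lines at the mean of 4. Igfbp3 probe set 1 falls from 4111 at day 3 to 1131 at day 42 in controls, while the diabetic mean at day 42 is 4374; Igfbp5 probe set 1 has its highest values in the day 3 controls.

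H19, a long non-coding RNA, had the largest diabetic change of the 7 genes at day 42 on its probe set 2. H19 probe set 1 read 1083.0, 1512.6, 819.4 and 798.4 in day 42 controls (1053 ± 332, SD, n = 4) and 2412.3, 3089.7, 2491.4 and 2259.6 in diabetic ventricles (2563 ± 364). H19 probe set 2 read 107.9, 133.7, 128.2 and 174.6 in controls (136.1 ± 28.0) and 1184.6, 2216.3, 1557.8 and 1770.8 in diabetic ventricles (1682 ± 431). On both probe sets every diabetic ventricle lay above every control. The difference was 1.32 ± 0.26 on probe set 1 (2.5-fold, adjusted p = 0.00071) and 3.61 ± 0.44 on probe set 2 (12.2-fold, adjusted p = 3.1e-06). The size of the change thus differed between the probe sets although they share a reference sequence, while the direction was the same. On H19 probe set 1 the change was smaller than on both Igfbp3 probe sets (1.90 and 1.58).

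At day 3 the relation was the reverse in sign and did not pass. H19 probe set 2 read 928.6, 2839.9, 846.4 and 815.7 in controls and 811.3, 806.4, 632.9 and 651.1 in diabetic ventricles. All diabetic values lay below all controls, narrowly, and 1 control stood far above the rest; the difference was -0.69 ± 0.44 (adjusted p = 0.70). H19 probe set 1 differed by -0.32 ± 0.26 with overlap (adjusted p = 0.81).

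At day 28, H19 probe set 2 read 61.2, 52.2, 46.5 and 100.2 in controls and 163.6, 51.6, 159.7 and 418.6 in diabetic ventricles. Diabetic replicate 2 lay among the controls, while the other diabetic ventricles lay above them. The differences were 1.31 ± 0.44 on probe set 2 and 0.69 ± 0.26 on probe set 1 (adjusted p = 0.15 and 0.20). Without diabetic replicate 2 at day 28 they were 1.84 and 0.98, and both passed (adjusted p = 0.01 and 0.026).

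The diabetic effect on H19 at day 42 exceeded that at day 3 by 1.64 ± 0.36 on probe set 1 and by 4.30 ± 0.63 on probe set 2 (adjusted p = 0.014 and 0.00024). With the chip lot as a block, the value for probe set 1 was 1.37 and no longer passed (adjusted p = 0.055). The effect at day 42 exceeded that at day 28 by 0.63 ± 0.36 and 2.30 ± 0.63, which did not pass (adjusted p = 0.71 and 0.096); without diabetic replicate 4 at day 28 the second was 2.78 and passed.

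**Figure D5:**
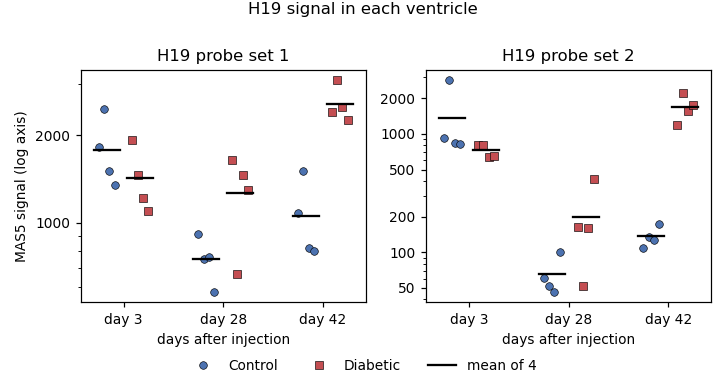
MAS5 signal on log axes of each ventricle for both H19 probe sets, by day, with controls as circles, diabetic animals as squares and lines at the mean of 4. On probe set 2 controls go from a mean of 1358 at day 3 to 65.03 at day 28 and 136.1 at day 42, and the diabetic mean goes from 725.4 to 198.4 and then 1682.

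In growing controls, 5 of the 15 probe sets fell from day 3 to day 28 and none rose, where 7.44% of all probe sets passed, 5.38% in the lower direction. Only 1 day 3 control shared fluidics station 2 with the 4 day 28 controls. With station as a block fewer of the 15 passed, as given further below. H19 probe set 1 fell from a mean of 1786 ± 496 to 752.2 ± 137 (SD, n = 4 each), a log2 change of -1.23 ± 0.26 (adjusted p = 0.0052). H19 probe set 2 fell from 1358 ± 989 to 65.03 ± 24.2, a log2 change of -4.23 ± 0.44 (18.7-fold, adjusted p = 6.2e-06). Neither pair of groups overlapped, as for 13.9% of all probe sets. Igfbp3 probe set 1 fell from 4111 ± 529 to 1407 ± 179, with a change of -1.55 ± 0.26 (adjusted p = 0.0011), and the change of Igfbp3 probe set 2 was -1.46 ± 0.37 (adjusted p = 0.017). Igfbp5 probe set 1 fell from 888.6 ± 136 to 256.2 ± 160, with a change of -2.02 ± 0.52 (adjusted p = 0.019). Its mean log2 over all groups was 7.94, little above the filter cut of 7.7. The bright day 3 controls thus helped it to be tested, so its falls from day 3, here and to day 42, were partly selected for. Igfbp5 probe set 2 changed by only -0.20, without a call, so the fall rested on probe set 1. The Igfbp5 call was lost without control replicate 4 at day 3 or replicate 1 at day 28, and that of Igfbp3 probe set 2 without control replicate 1 or 3 at day 3 or replicate 1 at day 28 (-1.30 to -1.71 over all animals left out). The ligands and receptors lay between -0.58 and 0.44 for this comparison, with no call.

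By day 42, 6 of the 15 probe sets were lower in controls than at day 3 and none was higher, against 17.9% of all probe sets, 10.9% in the lower direction. The 6 were both H19, both Igfbp3, Igfbp5 probe set 1 and Igf2 probe set 1. H19 stood at -3.12 ± 0.44 on probe set 2 (adjusted p = 3.5e-05), where control values of 107.9 to 174.6 stood against 815.7 to 2839.9, while on probe set 1 it stood at -0.77 ± 0.26 with overlapping groups (adjusted p = 0.037). The Igfbp3 changes were -1.86 ± 0.26 and -1.25 ± 0.37 (adjusted p = 3.2e-05 and 0.022), and that of Igfbp5 probe set 1 was -1.86 ± 0.52 (adjusted p = 0.016). Igfbp5 probe set 2 stood at -0.85 without a call. Igf2 probe set 1 stood at -0.64 ± 0.22 (adjusted p = 0.046), while Igf2 probe sets 2 and 3 stood at 0.60 ± 0.24 and 0.46 ± 0.29 (adjusted p = 0.09 and 0.28), again with opposite sign. From day 28 to day 42 no probe set of the 15 passed in controls by limma (9.04% of all did, and 3 of the 15 had an unadjusted p under 0.05). Among the calls from day 3 to day 42, those of H19 probe set 2 and Igfbp3 probe set 1 held without any single animal, while H19 probe set 1 lost its call without control replicate 1 or 2 at day 3 or replicate 1, 3 or 4 at day 42. Igfbp3 probe set 2 lost its call without replicate 1 or 3 at day 3 or 3 or 4 at day 42, Igfbp5 probe set 1 without replicate 2 at day 42, and Igf2 probe set 1 without any of 6 of the 8 animals. Endothelial marker sums in controls were 6170 to 8770 at day 3, 5002 to 5479 at day 28 and 3364 to 4531 at day 42, with 3 of 5 genes lower from day 3 to day 42. Fibroblast marker sums in controls were 121500 to 136600, 104600 to 152700 and 95980 to 105000, with 3 of 9 genes lower from day 3 to day 42, and the cardiomyocyte gene Ryr2 had means of 4742, 1186 and 2108. The part of these markers in the changes was not tested.

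In diabetic ventricles the course differed in where it ended. The diabetic rats of day 42 were lighter (mean 117.5 g) than those of day 28 (230 g). The part of body weight in this course was not tested. From day 3 to day 28 only H19 probe set 2 passed, with a change of -2.23 ± 0.44 (adjusted p = 0.008), where 5.87% of all probe sets passed, 4.18% in the lower direction; Igfbp3 probe set 1 stood at -0.83 ± 0.26 (adjusted p = 0.056). From day 28 to day 42, 4 of the 15 rose and none fell, against 14.9% of all and 6.96% in the higher direction. H19 rose by 1.08 ± 0.26 and 3.41 ± 0.44 (adjusted p = 0.0055 and 1e-05), and the groups did not overlap on either probe set, as for 19.7% of all. Igfbp3 probe set 1 rose by 0.89 ± 0.26 (adjusted p = 0.021) and Igf1 probe set 1 by 0.77 ± 0.26 (adjusted p = 0.044), both with overlap. Igfbp3 probe set 2 stood at 0.86, Igf1 probe set 2 at 0.56 and Igf1 probe set 3 at -0.23, all without a call. Without diabetic replicate 3 at day 42 the value of Igf1 probe set 1 was 0.51 and did not pass. Leaving out diabetic replicate 2, 3 or 4 at day 28 or 2 at day 42 ended that call too. The Igfbp3 call was lost without replicate 2 or 4 at day 28 or 1 or 2 at day 42, at 0.73 to 0.81.

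Set against day 3, diabetic ventricles at day 42 had Igfbp3 probe set 1 at 0.06 ± 0.26 (adjusted p = 0.89), with means of 4374 and 4271. H19 probe set 1 was higher at day 42 by 0.87 ± 0.26 (adjusted p = 0.019), and H19 probe set 2 stood at 1.19 ± 0.44 (adjusted p = 0.06), in both cases without overlap, as for 20.7% of all probe sets. Igf1 probe set 2 was higher by 0.63 ± 0.21 (adjusted p = 0.034), and in controls the same probe set stood at 0.48 ± 0.21 (adjusted p = 0.11). In diabetic ventricles Igf1 probe sets 1 and 3 stood at 0.54 and 0.12, without a call. Igfbp5 probe set 1 fell, with a change of -1.48 ± 0.52 (adjusted p = 0.048), a call lost in 7 of 8 cases when 1 animal was left out. Igfbp5 probe set 2 stood at -0.89 without a call. The H19 probe set 1 call was lost without replicate 3 or 4 at day 3 or 2 at day 42, and that of Igf1 probe set 2 in 5 of 8 cases. The calls of H19 probe set 1, Igf1 probe set 2 and Igfbp5 probe set 1 were the 2 higher and 1 lower of 15. Of all probe sets 19.6% passed, 8.45% higher and 11.1% lower. Fibroblast marker sums in diabetic ventricles were 97880 to 131200 at day 3, 98890 to 157500 at day 28 and 46070 to 64330 at day 42, with 5 of 9 genes lower at day 42 than at day 28 and 5 of 9 lower than at day 3. Endothelial sums were 7437 to 9178, 3701 to 6348 and 4722 to 6633, with 3 of 5 genes lower at day 42 than at day 3. Their part in the diabetic course was not tested. The control and diabetic courses use the same groups as the within-day differences, so the values are given side by side and are not separate evidence.

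All day 42 arrays shared the scan day and the chip lot but were processed on 2 fluidics stations. Station 1 held 2 diabetic and 3 control arrays and station 2 held 2 and 1. The diabetic change of H19 probe set 2 was 3.59 on the first and 3.63 on the second, and that of H19 probe set 1 was 1.61 and 0.65. Igfbp3 gave 2.27 and 1.47 on probe set 1 and 1.95 and 1.06 on probe set 2. Igf2r gave 0.29 and 0.73. For H19 and Igfbp3 every diabetic value lay above every control value at day 42, so an equal sign at both stations was fixed in advance. For Igf2r, whose groups overlapped, the sign was also the same at both stations.

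Marker genes of other cell types also differed between the groups at day 42, and their part in the results above was not tested. The summed signal of the 10 fibroblast markers was 46070 to 64330 in diabetic and 95980 to 105000 in control ventricles, with 5 of 9 tested genes lower. The 5 of 9 endothelial markers on the array summed to 4722 to 6633 against 3364 to 4531, with 1 of 5 genes higher and a median log2 change of 0.07; Kdr, a receptor for vascular endothelial growth factor, had a mean of 1787 against 530.5, while Pecam1, Flt1, Vwf and Nos3 overlapped between the groups. The 5 of 7 adipocyte markers summed to 17480 to 25320 against 13810 to 15160, with 3 of 4 tested genes higher. The 3 of 4 atrial markers summed to 36490 to 49850 against 8265 to 15520, carried by Nppa, the atrial natriuretic peptide gene, whose mean was 36190 against 7661, while the atrial light chains Myl7 and Myl4 overlapped between the groups. No gene of these lists had a mean at the floor. Macrophage and leukocyte markers, 6 of 8 on the array, summed to 5638 to 23390 with a median of 6483 in diabetic ventricles, against 16670 to 19200 with a median of 18010 in controls, and 1 of 4 tested genes was lower, at -2.45. Cd74, a chaperone of antigen-presenting cells, read 1451.2 to 3391.2 against 12656.7 to 14937.5, and 1 diabetic animal had 18305.4 for Lyz2, the lysozyme gene, where controls had 2236.1 to 3460.8. Sums overlapped for smooth muscle (41780 to 48230 against 36870 to 46650), skeletal muscle (5090 to 22820 against 17500 to 32220) and erythroid markers (19530 to 41380 against 37860 to 46720). These sums were carried mostly by 1 gene each. The diabetic and control means were 35960 and 33160 for Des (smooth muscle), 8475 and 18170 for Acta1 (skeletal muscle), and 27600 and 37720 for Hbb (erythroid).

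Over the wider IGF and growth hormone pathway, 38 further genes were listed, 25 were on the array and 21 were tested. None of the 21 passed at day 42, where 11.4% of all probe sets did, and the median change was -0.19 with a range of -0.51 to 0.67. At day 28 none passed either, against 2.1% of all. At day 3, where 0.934% of all passed, Igfbp6, a binding protein that prefers IGF-II, was the only gene of the 21 that passed: it had a mean of 1458 ± 100 in diabetic and 883.3 ± 97.9 in control ventricles (SD, n = 4 each), higher by 0.73 ± 0.16 (adjusted p = 0.021). Adipocyte and skeletal muscle marker sums also separated the groups at day 3, at 22420 to 28660 against 12210 to 18710 (1 of 4 tested genes higher) and 15490 to 26650 against 31820 to 42590 (1 of 4 lower), and their part in the day 3 values was not tested. The skeletal muscle sum was carried mostly by Acta1, with means of 15090 in diabetic and 28390 in control ventricles. The diabetic effect on Igfbp6 was smaller at day 42 than at day 3, by -0.92 ± 0.22 (adjusted p = 0.029). The insulin receptor gene Insr stood at 0.62 ± 0.35 at day 42 (adjusted p = 0.32), and the substrate Irs2 at -0.51 ± 0.33 (adjusted p = 0.41).

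In controls between day 3 and day 28, Socs2, an inhibitor of growth hormone signalling, changed by -1.13 ± 0.26 and Insr by -1.16 ± 0.35, while the growth hormone receptor gene Ghr rose by 0.54 ± 0.16 (adjusted p = 0.01, 0.044 and 0.035). These were 3 of 21, where 7.44% of all probe sets passed. Between day 28 and day 42 Grb10 was the only one of the 21 that passed in controls, at -0.44 ± 0.13 (adjusted p = 0.041), against 9.04% of all. Between day 3 and day 42, Igfbp6, Igfals and Igfbp2 rose by 0.66, 0.53 and 0.70 and the receptor adaptor gene Grb10 fell by 0.55, which is 4 of 21 and near the 17.9% of all probe sets that passed. Igfals encodes the acid-labile subunit of the circulating IGF complex. In diabetic ventricles Socs2 fell from day 3 to day 28 with a change of -0.97 ± 0.26 (adjusted p = 0.032), as did Akt2, a kinase downstream of the insulin receptor, at -0.88 ± 0.25 (adjusted p = 0.039). Grb14, an inhibitor of the insulin receptor, fell from day 28 to day 42, with a change of -0.78 ± 0.20 (adjusted p = 0.0098), and Igfals was higher at day 42 than at day 3 by 0.46 ± 0.15 (adjusted p = 0.036). These diabetic counts were 2, 1 and 1 of 21, against 5.87%, 14.9% and 19.6% of all probe sets.

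Among 24 genes listed as imprinted in rodents other than the members, 13 were on the array and 10 were tested. At day 42, 1 was higher and 1 lower in diabetic ventricles, with a median of 0.05, where 5.8% of all probe sets were higher and 5.63% lower. Kcnq1, which encodes a cardiac potassium channel, had a mean of 80.78 ± 23.99 in diabetic and 352.7 ± 138 in control ventricles, a log2 change of -2.08 ± 0.36 (adjusted p = 0.00026). Slc22a3, an organic cation transporter gene beside Igf2r, had 822.1 ± 148 against 470.3 ± 47.1, higher by 0.79 ± 0.25 (adjusted p = 0.042). Kcnq1 also fell in growing controls, with log2 changes of -1.41 ± 0.36 from day 3 to day 28 and -1.59 ± 0.36 from day 3 to day 42 (adjusted p = 0.019 and 0.0041). Its diabetic effect was lower at day 42 than at day 28, at -2.14 ± 0.51 (adjusted p = 0.039), the only one of the 10 that passed, against 0.973% of all probe sets. In diabetic ventricles Kcnq1 changed by -2.33 ± 0.36 from day 28 to day 42 and by -2.99 ± 0.36 from day 3 to day 42 (adjusted p = 0.00011 and 3.8e-06). The probe set annotated to Ins2, the insulin gene beside Igf2, rose from day 3 to day 42 by 0.59 ± 0.20 in controls and 0.81 ± 0.20 in diabetic ventricles (adjusted p = 0.039 and 0.0056). Nnat rose by 0.91 ± 0.22 from day 3 to day 42 in diabetic ventricles (adjusted p = 0.0056). Dio3, which inactivates thyroid hormone, rose there by 0.65 ± 0.21 from day 3 and by 0.64 ± 0.21 from day 28 (adjusted p = 0.034 and 0.042). Of the 10 tested, 2 passed in controls and 4 in diabetic ventricles from day 3 to day 42, against 17.9% and 19.6% of all probe sets, and 2 passed in diabetic ventricles from day 28 to day 42, against 14.9%.

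The genes whose log2 signals followed H19 probe set 1 most closely over the 24 arrays were Lamb2 (Pearson r = 0.82), Acacb (0.78), Mgll (0.76), Igfbp3 (0.76) and Pard3 (0.74). Lamb2, a laminin chain of basement membranes, had means of 9161 and 10110 in day 3 controls and diabetic ventricles, 5873 and 7452 at day 28, and 6998 and 14580 at day 42. For Igf2 probe set 1 they were Dkc1 (0.76), H19 (0.74), Aktip (0.70), Pard3 (0.68) and Mmp14 (0.68), and for Igf1 probe set 1 they were Grk5 (0.73), Flot1 (0.69), Rpl3 (0.68), Ninj1 (0.66) and Apoe (0.66). The 24 points share arrays, scan periods and group differences, and the coefficients are descriptions. After subtraction of the group means, H19 probe set 1 and Igf2 probe set 1 still correlated at 0.64, H19 probe set 1 and Igfbp3 probe set 1 at 0.50, and H19 probe set 2 and Igfbp3 probe set 1 at 0.05. The Igf2 probe sets 2 and 3 followed H19 probe set 1 at 0.12 and 0.16 over all arrays, where Igf2 probe set 1 stood at 0.74. After subtraction of the group means they stood at 0.29 and 0.40, and H19 probe set 2 with Igf2 probe set 1 at 0.23.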

How the data were processed

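Total RNA of 24 rat ventricles was hybridised to RG-U34A arrays, 1 animal per array. The deposited intensity values are MAS5 signals, per the submitters' processing notes, with the version not given in the sources used here; scan day, fluidics station and chip lot came from the deposited run settings. Genes were named from the platform annotation (7006 probe sets with 1 symbol, 308 with several, 1426 with none), checked against RefSeq through gene IDs (6994 found, 0 symbols changed).

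Signals below the 10th percentile of all arrays (30.5) were raised to it before the log2 transformation, and probe sets with a mean log2 at or above the 40th percentile (7.7, a signal of 208.3) were kept. A group-means model over all arrays was fitted with limma 3.58.1 in R 4.3.3 (18 residual degrees of freedom, empirical Bayes with trend and robust), with Benjamini-Hochberg adjustment within each of 12 comparisons and a two-sided threshold of 0.05. The number of arrays limits the precision: differences within a day had a median SE of 0.214, and differences of effects one of 0.303. The procedure was also run on simulated arrays with independent noise and changes placed only in the day 42 diabetic group. That simulation held no scan day, station or chip lot effects, so it says nothing on how these affect the fit. Tables were made with Python 3.11.15, numpy 2.4.6, pandas 2.3.3, scipy 1.17.1 and matplotlib 3.10.9.

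Every annotated probe set of the 7 genes is reported. Of the pathway and imprinted gene lists, up to 5 genes past the threshold by smallest adjusted p are named. Marker lists are given as sums and counts, with some genes named. For H19, Igf2 and Igf1 the 5 most similar genes by Pearson r are named. The members and lists were chosen with earlier results of these data known. Alternatives changed the floor, pseudocount, filter, normalization, variance model, samples in the fit, probe set choice and blocks, and left out each animal in turn.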

Additional observations from a re-analysis of the deposited data

Results flagged for a closer look

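The diabetic effect differed between day 42 and day 3 by the test of the difference itself for Igfbp3 probe set 1, by 1.92 on the log2 scale, and for H19, by 1.64 on probe set 1 and 4.30 on probe set 2. Scan days and chip lots differed between these days. With scan day as a block the values were 1.93, 1.59 and 4.22 (adjusted p = 0.0083, 0.032 and 0.0021), and Igfbp3 probe set 2 passed as well (adjusted p = 0.038). With fluidics station as a block they were 1.88, 1.74 and 4.25 (adjusted p = 0.012, 0.015 and 0.00085), and with chip lot as a block 1.63, 1.37 and 4.08 (adjusted p = 0.021, 0.055 and 0.0012), all by limma. All day 42 arrays shared the scan day and the chip lot. The scan day and chip lot blocks could therefore adjust only the day 3 effect, so values near those of the main fit were partly fixed in advance.

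A single animal stood far from its group in 12 of 126 combinations of probe set and group, by Dixon's test on the gap to the nearest animal over the range of 4. Chance gives such a gap in about 1 in 20 groups. Among brighter probe sets these were a day 3 control of H19 probe set 2 at 2839.9, a day 42 control of Igfbp3 probe set 1 at 959.5 on the low side, a day 28 diabetic animal of Igfbp3 probe set 2 at 1765.7 on the high side, and a day 42 diabetic animal of the same probe set at 966.9 on the low side. The others were a day 3 control of Igf2 probe set 3 at 421.6 (high), a day 28 control of Igfbp5 probe set 2 at 196.1 (low) and a day 42 control of Igf1 probe set 4 at 59.8 (low). On the dimmest probe sets, Igf2 probe set 4 read 123.9 in a day 3 diabetic animal (high). Igf2 probe set 5 read 30.0 in a day 42 diabetic animal (low), and Igf2 probe set 6 read 38.9 in a day 42 control (low). Igfbp5 probe set 3 read 39.0 in a day 3 diabetic animal and 48.4 in a day 28 control (both high). In each of these Igfbp5 groups the other 3 animals lay at the floor, so the gap equals the range by construction and these 2 of the 12 say nothing beyond a single value above the floor.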

How the results depend on the processing

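The calls of H19 and Igfbp3 at day 42, on both probe sets each, held under every alternative run for them and without any single animal. Over 180 single results and 3990 alternative values, 79 lost a call, 42 gained one and 0 called values changed sign. The other 3869 were counted as the same, which includes every value called in neither fit, whatever its sign. Most of the 180 results were not called in the main fit, so the 3869 do not measure how firmly calls held. The count of the 15 probe sets called at day 42 was 5; it was 3 with 1 probe set per gene, by construction, and 4 to 5 when 1 animal was left out. The count for controls from day 3 to day 28 (5) was 3 with a filter at the 60th percentile, with 1 probe set per gene and with fluidics station as a block. The diabetic count from day 3 to day 28 (1) was 0 with only the groups compared in the fit or 1 probe set per gene, and 2 with the replicate block. The diabetic count from day 3 to day 42 (3) was 1 with the filter at the 60th percentile. Day 3 (0) gave 1 with a pseudocount of the 25th percentile or only the groups compared, and the difference of effects between days 42 and 28 (0) gave 1 with a floor or pseudocount at the 25th percentile. Where construction does not show it, the cause was not tested.

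With 1 animal left out, counts ran from 0 to 0 at day 3, 0 to 2 at day 28, 3 to 5 for controls from day 3 to 28, 0 to 1 from day 28 to 42 and 3 to 6 from day 3 to 42, 1 to 2, 2 to 4 and 0 to 5 for the diabetic courses in the same order, and 0 to 0, 0 to 1 and 3 to 4 for the differences of effects between days 28 and 3, 42 and 28, and 42 and 3. Animals with the same number in both groups of a day correlated at -0.19 to 0.40 after group means were removed, so the numbers were not taken as pairs; with the replicate block the day 42 count was 4. Scan day as a block could not be fitted for the 6 comparisons between days, nor chip lot for the 4 that involve day 3. Dim probe sets are limited by background: 6 of 21 fell below the filter.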
